A study of Mus musculus with 11 samples.

Results

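The 8 transcripts described here encode cytokines and receptors of the interleukin-1 (IL-1) family: Il1a, Il1b, Il18, Il33, Il1rn, Il1r1, Il1rap and Il1rl1. They were chosen by gene name from a table of 43346 genes, and all 8 were found in it. The RNA came from cells selected with EpCAM beads over 2 columns from dissociated livers of 11 wildtype mice, all males of C57BL/6 and 14 to 16 weeks old. Each library came from its own mouse. The labels call these cells cholangiocytes, the epithelial cells of the bile ducts. The 4 DDC mice were given the DDC diet for 10 days, a diet used in mice to injure bile ducts and cause cholestasis. The 3 R15 mice had the same 10 days of DDC diet followed by 15 days on chow, and the 4 Control mice were kept on chow. All 3 groups share the wildtype genotype, and no transgene was used.

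IL-1α and IL-1β signal through the receptor IL1R1, which pairs with the accessory chain IL1RAP to start MyD88 and NF-κB signalling. IL-1RA, the product of Il1rn, occupies IL1R1 without signalling and is the natural antagonist of both cytokines. IL-1β and IL-18 are made as precursors that caspase-1 cuts inside inflammasomes, whereas IL-33 is a nuclear protein released from damaged cells and is sensed by ST2, the product of Il1rl1, again with IL1RAP. In liver, IL-1β is best known from macrophages and neutrophils, while IL-33 is known to drive cholangiocyte growth in mouse bile duct injury by way of innate lymphoid cells.

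The libraries held between 49339240 and 72929107 reads, and values are FPKM, which scale reads by transcript length and library size. A value of FPKM 1 rested on a median of 86 to 156 reads per library. The 15 cholangiocyte markers summed to between 12081 and 13591 FPKM in DDC, between 10413 and 11460 FPKM in R15 and between 9862 and 12568 FPKM in Control. Transcripts of other cells were also present, and in bulk RNA fewer cells of a type and less RNA per cell cannot be told apart. The summed FPKM of 14 macrophage markers was 1409 to 2547 in DDC, 148 to 801 in R15 and 137 to 162 in Control. Control 3 stood apart with 11252 FPKM of 7 gastric mucous genes, against 67.3 to 161 FPKM in the other libraries. Control 4 held 37.5 FPKM of 7 squamous epithelial genes, against 0.0849 to 0.335 FPKM in the others. Sums of 9 pancreatic acinar genes reached 6741 FPKM in Control 1 and 795 to 1786 FPKM in Control 2, Control 3, DDC 1 and R15 3, against 6.08 to 11.5 FPKM in the remaining libraries. These last 3 lists were put together after the values were seen.

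The sequences just before the transcription starts are shown for Il1b and Il1rn, the tested members with the largest changes, and for Il1a, which lies beside Il1b on chromosome 2. They are RefSeq sequences of GRCm38.p6, 5′ to 3′ on the strand of the gene, from 250 bases before the start to 50 bases after it, and capitals mark matches to the motifs named next.
Il1b (chr2:129371090-129371389, minus strand): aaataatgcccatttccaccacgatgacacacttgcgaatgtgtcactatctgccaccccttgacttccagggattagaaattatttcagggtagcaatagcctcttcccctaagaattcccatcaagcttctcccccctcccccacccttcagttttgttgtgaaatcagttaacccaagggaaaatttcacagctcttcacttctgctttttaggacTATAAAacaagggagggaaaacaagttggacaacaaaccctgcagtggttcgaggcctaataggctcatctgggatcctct
Il1rn, first start (chr2:24336610-24336909, plus strand): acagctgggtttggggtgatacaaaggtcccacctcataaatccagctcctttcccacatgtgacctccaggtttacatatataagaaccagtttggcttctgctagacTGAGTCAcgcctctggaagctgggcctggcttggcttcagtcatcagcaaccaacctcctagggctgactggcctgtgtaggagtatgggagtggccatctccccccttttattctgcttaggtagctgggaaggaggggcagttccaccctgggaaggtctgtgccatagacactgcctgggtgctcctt
Il1a (chr2:129309923-129310222, minus strand): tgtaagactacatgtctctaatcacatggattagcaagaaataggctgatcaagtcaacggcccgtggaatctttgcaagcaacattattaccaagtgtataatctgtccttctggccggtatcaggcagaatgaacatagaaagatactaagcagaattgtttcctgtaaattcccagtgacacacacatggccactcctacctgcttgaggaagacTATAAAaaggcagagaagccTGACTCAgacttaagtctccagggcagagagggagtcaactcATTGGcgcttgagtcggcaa

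Motifs were searched on both strands: the CCAAT box CCAAT, which the factor NF-Y named in the study's title binds, the TATA box TATAAA, the AP-1 site TGANTCA and the NF-kB site. The Il1b window held a TATA box from base -31 to -26, counted from the start, and no other of these motifs. The Il1rn window held an AP-1 site from base -141 to -135. The Il1a window held a TATA box from base -32 to -27, an AP-1 site from base -12 to -6 and, on the opposite strand, a CCAAT box from base 30 to 34. Over 32851 RefSeq windows of the same length, 37.4% held a CCAAT box, 13.6% a TATA box, 7.81% an AP-1 site and 4.51% an NF-kB site. Among the other members, Il18, Il1rap and 1 window each of Il1r1, Il33 and Il1rl1 held a CCAAT box. That Il1r1 window also held an NF-kB site from base -232 to -223, on the opposite strand. The Il18 window held a TATA box match from base -175 to -170, on the opposite strand. The Il33 windows held 1 each, from base -203 to -198 and from base -29 to -24. The window of a later Il1rn start held 1 from base 14 to 19, after that start and on the opposite strand. These matches are letters in a window and do not show binding.

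Il1b and Il1rn rose on the DDC diet and fell back in R15, Il33 rose to a smaller degree and Il18 fell. The receptor chains Il1r1 and Il1rap did not pass the threshold in the 3 comparisons over all 11 libraries. Of the 8 members, 7 reached FPKM 1 in 3 or more libraries and were tested with limma on log2(FPKM + 1), with p-values adjusted by Benjamini-Hochberg over 15264 genes and a threshold of 0.05. For DDC against Control, 3 of the 7 were higher and 1 was lower, while 33.5% of all genes tested were higher and 31.9% lower. The share of members that changed was therefore close to that of all genes. For R15 against Control 1 member was higher and 1 lower, beside 6.87% and 2.72% of all genes. For R15 against DDC 1 was higher and 2 were lower, beside 33.4% and 28.8% of all genes. Each group serves in a pair of these comparisons, so their results are not independent.

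**Figure D1:**
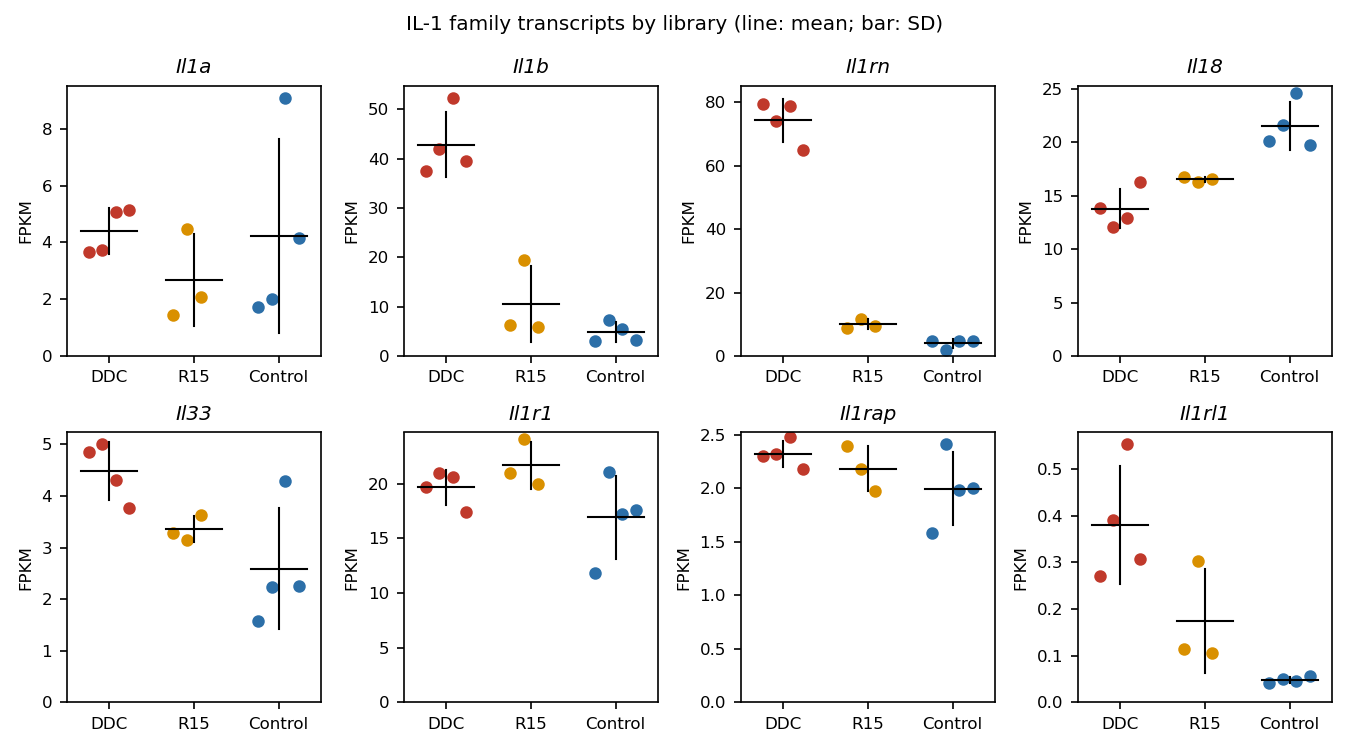
FPKM of the 8 members in each library (points), by group on the x axis, with the group mean as a horizontal line and the SD as a vertical bar. The 4 DDC libraries lie above all others for Il1b (37.4 to 52.3 FPKM) and Il1rn (64.9 to 79.6 FPKM), and Il1r1 and Il1rap overlap between all groups.

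Among the agonist cytokines, Il1b encodes the inflammatory cytokine IL-1β. It had 37.4, 41.9, 52.3 and 39.6 FPKM in DDC 1 to 4, 6.21, 19.4 and 5.81 FPKM in R15 1 to 3, and 3.08, 7.38, 5.38 and 3.28 FPKM in Control 1 to 4. Every DDC library was above every other library, and R15 2 stood above the other R15 libraries, which lay within the Control range. Il1b averaged 42.8 ± 6.57 FPKM in DDC (SD, n = 4) and 4.78 ± 2.02 FPKM in Control (SD, n = 4), an 8.95-fold ratio of means. On the log2 scale this was a rise of 2.97 ± 0.35 (SE), with an adjusted p of 4.18e-05 by limma, and 0.445% of all genes tested had a larger log2 fold change. In R15 the mean was 10.5 ± 7.74 FPKM (SD, n = 3). R15 against DDC gave -2.12 ± 0.38, with an adjusted p of 0.000801 by limma. R15 against Control gave 0.86 ± 0.38, with an adjusted p of 0.169 by limma, and without R15 2 this became 0.34 ± 0.27, with an adjusted p of 0.447.

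Markers of the leukocytes that are known to make IL-1β moved with Il1b. For DDC against Control, 11 of 14 macrophage markers were higher and none was lower, 3 of the 3 neutrophil markers tested (of 9 on the list) were higher, and 6 of 7 dendritic cell markers were higher. The macrophage markers Marco and Ms4a7 and the neutrophil marker Csf3r would not have passed the filter without the DDC libraries, so their calls support nothing. The macrophage sum was 1409, 1707, 1609 and 2547 FPKM in DDC 1 to 4, 148, 801 and 179 FPKM in R15 1 to 3, and 145, 162, 138 and 137 FPKM in Control 1 to 4. R15 2, with the highest Il1b of its group, also had the highest macrophage sum of its group. In DDC the highest macrophage sum was in DDC 4 and the highest Il1b in DDC 3. Neutrophil markers summed to 42.3 to 70.8 FPKM in DDC, 2.69 to 10.5 FPKM in R15 and 1.40 to 3.95 FPKM in Control, and 5 of the 9, Mmp8, Camp, Ngp, Ly6g and Retnlg, stayed under 1 FPKM in every library. Dendritic cell markers summed to 70.5 to 90.1 FPKM in DDC, 24.9 to 66.8 FPKM in R15 and 16.3 to 27.7 FPKM in Control. The part of these cells in the rise of Il1b was not tested.

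**Figure D2:**
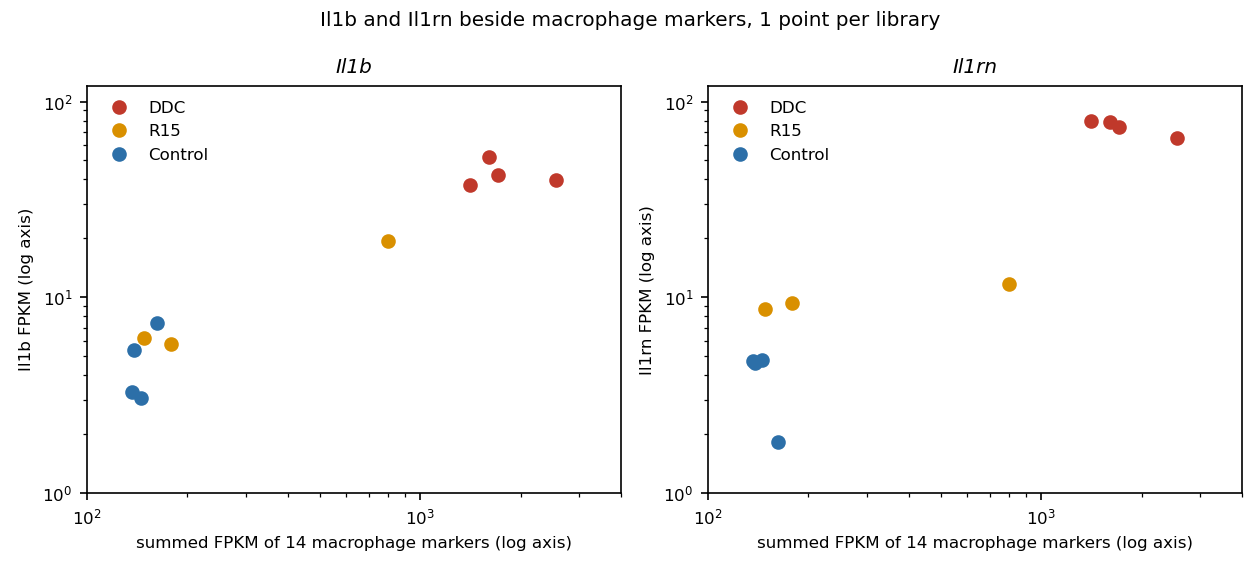
Il1b (left) and Il1rn (right) FPKM on the y axes against the summed FPKM of 14 macrophage markers on the x axes, all on log axes, with 1 point per library coloured by group. R15 2, at a macrophage sum of 801 FPKM, has 19.4 FPKM of Il1b, between the DDC libraries and the other R15 libraries, and 11.8 FPKM of Il1rn, beside 8.78 and 9.32 FPKM in the other R15 libraries.

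Il1a encodes IL-1α, which epithelial cells hold ready and release on damage. It had 3.64, 3.75, 5.08 and 5.14 FPKM in DDC 1 to 4, 1.42, 4.49 and 2.09 FPKM in R15 1 to 3, and 1.73, 1.99, 9.09 and 4.14 FPKM in Control 1 to 4. The DDC libraries lay inside the range of the Control libraries, which Control 3 and Control 4 widened upward. DDC against Control gave 0.24 ± 0.40 on the log2 scale with a 95% interval of -0.65 to 1.13 and an adjusted p of 0.615 by limma. The other comparisons did not pass either, at -0.39 ± 0.43 (R15 against Control) and -0.63 ± 0.43 (R15 against DDC), with adjusted p-values of 0.568 and 0.222 by limma. Control 3 and Control 4 are the libraries with gastric mucous and squamous epithelial transcripts. Without both, Il1a was higher in DDC by 0.91 ± 0.29, with an adjusted p of 0.0266 by limma. In R15 against Control the sign turned to 0.27 ± 0.31 without them, with an adjusted p of 0.631. This alternative was chosen after the data were seen. R15 2 had the highest Il1a and also the highest macrophage sum of its group. The DDC libraries had higher macrophage sums than R15 2, with Il1a inside the Control range. The part of those epithelia and of macrophages in the Il1a values was not tested.

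**Figure D3:**
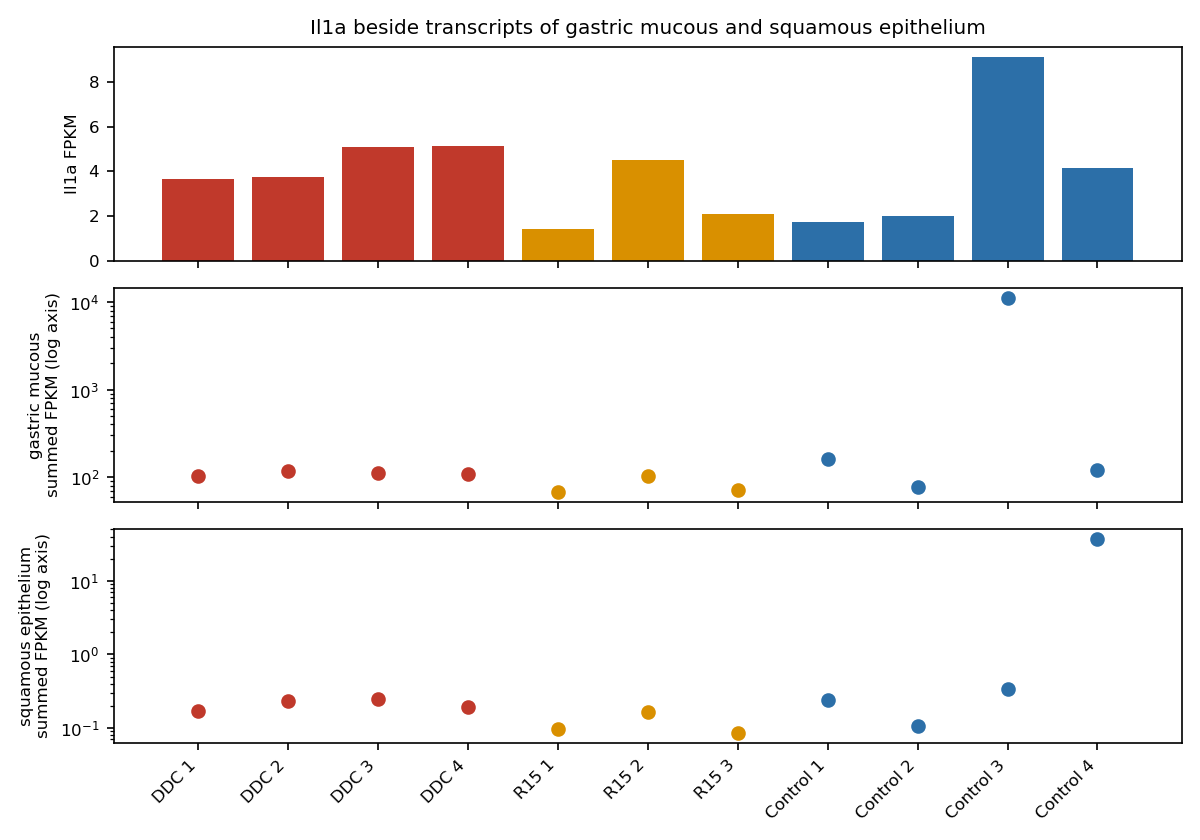
Il1a FPKM per library (top, bars), summed FPKM of 7 gastric mucous genes (middle, log axis) and summed FPKM of 7 squamous epithelial genes (bottom, log axis), with libraries on the x axis coloured by group. The highest Il1a value, 9.09 FPKM, is in Control 3, which also has the highest gastric mucous sum, and Control 4 has the highest squamous sum.

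Il18 encodes IL-18, which epithelia make at rest and which prompts interferon gamma from lymphocytes. It had 13.8, 12.1, 12.9 and 16.3 FPKM in DDC 1 to 4, 16.7, 16.3 and 16.6 FPKM in R15 1 to 3, and 20.1, 21.6, 24.7 and 19.8 FPKM in Control 1 to 4. All DDC and R15 libraries lay below all Control libraries, and DDC 4 reached the R15 range. Il18 averaged 13.8 ± 1.83 FPKM in DDC (SD, n = 4) and 21.5 ± 2.23 FPKM in Control (SD, n = 4), and fell by 0.61 ± 0.09 on the log2 scale, with an adjusted p of 0.000178 by limma. The mean was 16.5 ± 0.242 FPKM in R15 (SD, n = 3). R15 against Control gave -0.36 ± 0.10 and an adjusted p of 0.0461, and R15 against DDC gave 0.25 ± 0.10 and an adjusted p of 0.0421, both by limma. These last results sit near the threshold: of 25 alternative settings, 17 lost the R15 against Control call and 12 lost the R15 against DDC call, with the direction kept in all of them. The sum of the 12 hepatocyte markers moved in the same direction. It was 1246 to 1871 FPKM in DDC, 2036 to 2862 FPKM in R15 and 3193 to 3925 FPKM in Control. Alb made up most of it in DDC and Control, at 1028 ± 222 and 2773 ± 302 FPKM (SD, n = 4 each). For DDC against Control 2 of the 12 were higher and 5 lower. The hepatocyte marker Pck1 would not have passed the filter without the DDC libraries, so a call of it supports nothing. The sum of endothelial markers, given with Il33 below, was also lowest in DDC. The part of these cells in the Il18 values was not tested. The model of Il18 in the table starts at position 50575273 of chromosome 9 (mm10), downstream of the start at 50554827 in GENCODE M21, and has 714 bases, so its level may leave out reads of other exons.

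Il33 encodes the alarmin IL-33. It had 4.85, 5.004, 4.32 and 3.76 FPKM in DDC 1 to 4, 3.29, 3.15 and 3.63 FPKM in R15 1 to 3, and 1.58, 2.24, 4.29 and 2.26 FPKM in Control 1 to 4. The DDC and Control libraries overlapped only because Control 3 was above DDC 4, and all R15 libraries were below all DDC libraries. Il33 averaged 4.48 ± 0.566 FPKM in DDC (SD, n = 4) and 2.59 ± 1.18 FPKM in Control (SD, n = 4), and rose by 0.66 ± 0.18 on the log2 scale, with an adjusted p of 0.00979 by limma. R15 against Control gave 0.33 ± 0.20 and R15 against DDC gave -0.33 ± 0.20, with adjusted p-values of 0.298 and 0.177 by limma. Without Control 3 these passed, at 0.53 with an adjusted p of 0.0328 (R15 against Control) and at -0.33 with an adjusted p of 0.0259 (R15 against DDC). Endothelial cells are another known source of IL-33. In DDC, 11 of 12 endothelial markers were lower than in Control and none was higher, and their sum was 20.6 to 52.1 FPKM in DDC, 66.4 to 207 FPKM in R15 and 94.7 to 404 FPKM in Control, with the top value in Control 3. Of 4 mesothelial markers tested, 1 was higher and 3 were lower, with sums of 56.3 to 86.8 FPKM in DDC, 40.1 to 45.1 FPKM in R15 and 36.5 to 49.3 FPKM in Control. The endothelial marker Emcn and the mesothelial markers Upk1b and Upk3b would not have passed the filter without the Control libraries, so their calls support nothing. The 12 stellate cell and fibroblast markers summed to 420 to 505 FPKM in DDC, 163 to 209 FPKM in R15 and 30.8 to 61.0 FPKM in Control. Of these, Rgs5 alone averaged 452 ± 37.9 FPKM in DDC and 37.5 ± 13.7 FPKM in Control (SD, n = 4 each). Another 8 of the 12 stayed under 1 FPKM in every library. The part of all these cells in the Il33 values was not tested.

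The antagonist Il1rn changed most of all members. It had 79.6, 74.1, 78.9 and 64.9 FPKM in DDC 1 to 4, 8.78, 11.8 and 9.32 FPKM in R15 1 to 3, and 4.78, 1.84, 4.61 and 4.73 FPKM in Control 1 to 4. The 3 groups did not overlap, and Control 2 was low among the Control libraries. Il1rn averaged 74.4 ± 6.78 FPKM in DDC (SD, n = 4) and 3.99 ± 1.44 FPKM in Control (SD, n = 4), an 18.6-fold ratio of means. On the log2 scale it rose by 3.97 ± 0.21, with an adjusted p of 3.79e-07 by limma, and 0.0786% of all genes tested had a larger log2 fold change. These levels rested on 20227 to 32129 reads in DDC and 587 to 1864 reads in Control. In R15 the mean was 9.95 ± 1.59 FPKM (SD, n = 3), a 2.49-fold ratio over Control. R15 against DDC gave -2.79 ± 0.23, with an adjusted p of 8.27e-06 by limma. R15 against Control gave 1.18 ± 0.23, with an adjusted p of 0.0146 by limma, and without R15 2 it missed the threshold at 1.07 ± 0.26, with an adjusted p of 0.0521. Macrophages make IL-1RA too, and the same marker sums as for Il1b apply. Among the DDC libraries, DDC 4 had the highest macrophage sum and the lowest Il1rn. R15 2 had the highest macrophage sum and the highest Il1rn of its group. The part of these cells in the Il1rn values was not tested.

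The balance of these transcripts can be read from ratios of FPKM within each library. Il1rn over Il1b was 2.13, 1.77, 1.51 and 1.64 in DDC 1 to 4, 1.41, 0.606 and 1.60 in R15 1 to 3, and 1.56, 0.249, 0.857 and 1.44 in Control 1 to 4. Antagonist transcripts outnumbered Il1b transcripts per length in all DDC libraries, and the DDC and Control ratios overlapped, between 1.51 and 1.56. Il1rn over the sum of Il1a and Il1b was 1.38 to 1.94 in DDC, 0.492 to 1.18 in R15 and 0.196 to 0.996 in Control, with no overlap between DDC and Control. Il1b over Il1a was 10.3, 11.2, 10.3 and 7.70 in DDC 1 to 4, 4.36, 4.32 and 2.79 in R15 1 to 3, and 1.78, 3.71, 0.592 and 0.794 in Control 1 to 4. Il1a was thus above Il1b in Control 3 and Control 4 alone.

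Of the receptors, Il1r1 encodes the signalling receptor for IL-1α and IL-1β. It had 19.7, 20.9, 20.6 and 17.4 FPKM in DDC 1 to 4, 20.9, 24.1 and 20.0 FPKM in R15 1 to 3, and 11.9, 21.1, 17.3 and 17.5 FPKM in Control 1 to 4. All groups overlapped, with Control 1 the lowest library. The log2 difference was 0.23 ± 0.14 for DDC against Control, with a 95% interval of -0.09 to 0.54 and an adjusted p of 0.184 by limma. It was 0.36 ± 0.15 for R15 against Control, with an interval of 0.02 to 0.70, and 0.13 ± 0.15 for R15 against DDC, with an interval of -0.21 to 0.48, and the adjusted p-values were 0.156 and 0.472 by limma. Without Control 2, DDC against Control passed at 0.33, with an adjusted p of 0.0476.

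Il1rap encodes the accessory chain that the IL-1, IL-33 and IL-36 receptors share. It had 2.30, 2.32, 2.48 and 2.18 FPKM in DDC 1 to 4, 2.40, 2.18 and 1.97 FPKM in R15 1 to 3, and 1.58, 2.42, 1.98 and 2.00 FPKM in Control 1 to 4. The groups overlapped, and again Control 1 was the lowest. The log2 difference was 0.15 ± 0.08 for DDC against Control, with an interval of -0.03 to 0.34 and an adjusted p of 0.134 by limma, and without Control 2 it passed at 0.22, with an adjusted p of 0.0306. R15 against Control gave 0.09 ± 0.09 and R15 against DDC gave -0.06 ± 0.09, with adjusted p-values of 0.530 and 0.576 by limma. Il1r1 over Il1rap ranged from 7.99 to 9.03 in DDC, 8.74 to 11.04 in R15 and 7.49 to 8.76 in Control.

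Il1rl1 encodes ST2, the IL-33 receptor, which mast cells and type 2 innate lymphoid cells carry in most tissues. It was the least abundant member and too low for the test across all genes. It had 0.270, 0.391, 0.553 and 0.307 FPKM in DDC 1 to 4, 0.115, 0.302 and 0.106 FPKM in R15 1 to 3, and 0.0412, 0.0502, 0.0461 and 0.0561 FPKM in Control 1 to 4. All DDC and R15 libraries were above all Control libraries, and R15 2 reached the DDC range. These values rested on 119 to 188 reads in DDC, 47 to 133 reads in R15 and 20 to 26 reads in Control. The mean was 0.380 ± 0.126 FPKM in DDC (SD, n = 4) and 0.0484 ± 0.00633 FPKM in Control (SD, n = 4), a 7.85-fold ratio of means. A 2-sided exact permutation test of log2(FPKM + 1) gave p = 0.0286 for DDC against Control, the smallest that 4 against 4 libraries allow. R15 against Control gave p = 0.0571 by the exact permutation test, the smallest that 3 against 4 libraries allow, and R15 against DDC gave p = 0.114. In limma voom on whole reads recovered from the FPKM, over 24041 genes with no FPKM filter, Il1rl1 was higher in DDC than in Control by 2.88 ± 0.41 (log2), with an adjusted p of 0.000163. The same fit gave 1.65 ± 0.46 (R15 against Control) and -1.22 ± 0.35 (R15 against DDC), with adjusted p-values of 0.0572 and 0.0148.

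Of the 10 mast cell and basophil markers, Fcer1a and Tpsab1 were at 0 in every library, and the sum was 1.88 to 2.496 FPKM in DDC, 1.12 to 1.95 FPKM in R15 and 0.967 to 2.79 FPKM in Control. The 15 markers of T cells, NK cells and innate lymphoid cells summed to 4.83 to 7.01 FPKM in DDC, 4.50 to 19.0 FPKM in R15 and 3.58 to 7.44 FPKM in Control. The sums of both lists in DDC thus lay within the Control range, but members within them moved apart. Il7r was 2.53 ± 0.282 FPKM in DDC and 0.498 ± 0.147 FPKM in Control, and Mrgprb2 1.27 ± 0.351 and 0.577 ± 0.108 FPKM (SD, n = 4). Trac was 1.07 ± 0.408 and 2.14 ± 0.800 FPKM in the same groups, and Cd3d, Cd3e and Cd3g also had lower means in DDC. Il7r and Mrgprb2 passed the filter through the DDC libraries alone, so no test is given. The part of these cells in the Il1rl1 values was not tested.

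**Figure D4:**
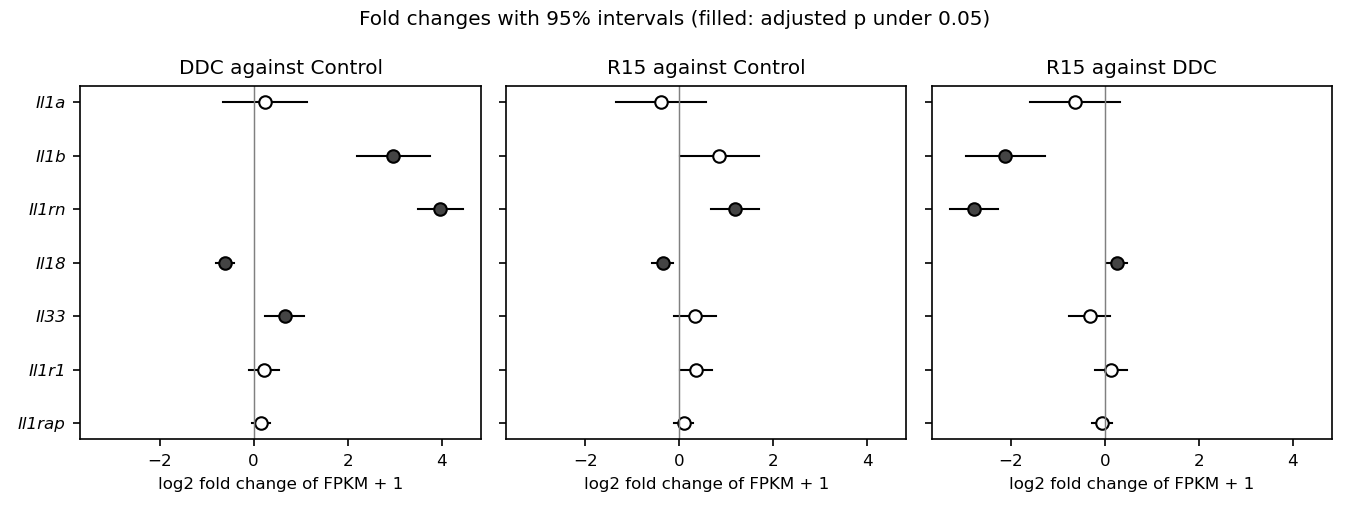
Log2 fold changes of FPKM + 1 (x axis) with 95% intervals for the 7 tested members (y axis) in the 3 comparisons, by limma; filled points have an adjusted p under 0.05. Il1rn (3.97) and Il1b (2.97) have the largest changes for DDC against Control, and the intervals of Il1rap include 0 in all 3 panels.

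The order of levels differed between the groups. In DDC, Il1rn came first at 74.4 FPKM, followed by Il1b at 42.8, Il1r1 at 19.6 and Il18 at 13.8 FPKM, with no overlap between neighbours. Il33 and Il1a followed at 4.48 and 4.40 FPKM with overlapping ranges, then Il1rap at 2.32 and Il1rl1 at 0.380 FPKM. In R15 the order was Il1r1 at 21.7, Il18 at 16.5, Il1b at 10.5, Il1rn at 9.95, Il33 at 3.36, Il1a at 2.67, Il1rap at 2.18 and Il1rl1 at 0.174 FPKM. There Il18 overlapped with Il1b, Il1b with Il1rn, Il33 with Il1a, and Il1a with Il1rap. In Control, Il18 at 21.5 and Il1r1 at 16.9 FPKM came first and overlapped. The next 5, Il1b at 4.78, Il1a at 4.24, Il1rn at 3.99, Il33 at 2.59 and Il1rap at 2.00 FPKM, each overlapped with their neighbour, and Il1rl1 was last at 0.0484 FPKM.

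Among the rest of the family, 5 of 9 further ligand names were in the table, and Il1f6, which encodes IL-36α, alone passed the filter, through the DDC libraries, so its values are given with no test. It had 2.30, 1.76, 2.82 and 1.75 FPKM in DDC 1 to 4, 0.163, 0.124 and 0.175 FPKM in R15 1 to 3, and 0.0804, 0.0392, 0.736 and 0.775 FPKM in Control 1 to 4. It was high in all DDC libraries and, within Control, higher in Control 3 and Control 4 than in the other two. Il1f10 was at 0 in every library.

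Of 8 further receptors and decoys 5 were tested, and 3 were higher and 1 lower in DDC than in Control. Il1r2, the decoy receptor that takes up IL-1 without signalling, was 7.07 ± 1.69 FPKM in DDC (SD, n = 4), 1.02 ± 0.732 FPKM in R15 (SD, n = 3) and 0.918 ± 0.250 FPKM in Control (SD, n = 4). Its log2 fold change was 2.06 ± 0.21 for DDC against Control, with an adjusted p of 1.52e-05 by limma, and -2.04 ± 0.23 for R15 against DDC. Il18bp, which encodes the soluble inhibitor of IL-18, was 21.8 ± 6.62 FPKM in DDC (SD, n = 4), 9.35 ± 6.73 FPKM in R15 (SD, n = 3) and 7.70 ± 2.18 FPKM in Control (SD, n = 4). It rose by 1.38 ± 0.34 in DDC against Control, with an adjusted p of 0.00454 by limma, while Il18 itself was lower. Il18rap, the accessory chain of the IL-18 receptor, is 1 of those 3 but passed the filter through the DDC libraries alone, so its call supports nothing. It averaged 1.496 ± 0.256 FPKM in DDC (SD, n = 4), 0.193 ± 0.132 FPKM in R15 (SD, n = 3) and 0.0957 ± 0.0197 FPKM in Control (SD, n = 4). Its partner Il18r1 did not pass the test at -0.19 ± 0.22. Sigirr, an inhibitory receptor of the family in epithelia, fell by 0.35 ± 0.06. In R15 against Control 0 of the 5 passed by limma, 1 had an unadjusted p under 0.05 and voom also called 0. In R15 against DDC 3 were lower, and the limit given for Il18rap applies to that count too.

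Inflammasome and processing genes were described over a list of 21, of which 17 were tested. In DDC, 10 were higher and 1 was lower than in Control, with a list median of 0.82. Of the 10, Nlrp3, Nlrp1b and Mefv would not have passed the filter without the DDC libraries, so the count and the median are a description of the genes tested. The sensor Nlrp3 was 5.20 ± 0.575 FPKM in DDC (SD, n = 4), 0.965 ± 0.802 FPKM in R15 (SD, n = 3) and 0.421 ± 0.185 FPKM in Control (SD, n = 4). Among genes that passed without them, the largest changes were in the caspase gene Casp4 at 1.74 ± 0.15, the pore former Gsdmd at 1.58 ± 0.24 and the DNA sensor Aim2 at 1.40 ± 0.22. Nek7, a kinase that NLRP3 needs, was the gene that fell, by 0.15 ± 0.05. Named after their values were seen, Casp1, which cuts IL-1β and IL-18, gave 0.82 ± 0.35 with an adjusted p of 0.0643, and the adaptor Pycard gave 0.30 ± 0.19 with an adjusted p of 0.195, both by limma. Casp1 had 5.86, 6.68, 6.40 and 9.14 FPKM in DDC 1 to 4, and 2.77, 2.05, 7.89 and 2.97 FPKM in Control 1 to 4, with Control 3 inside the DDC range. In R15 against Control 0 of the 17 passed by limma, 5 had an unadjusted p under 0.05 and voom called 1. Without Control 2, limma called 1 higher and 2 lower. In R15 against DDC 1 was higher and 11 were lower, with a median of -0.77. Nlrp3, Nlrp1b, Mefv and Nlrp6 would not have passed the filter without the DDC libraries, so this count and median too only describe the genes tested.

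All 21 genes of the signalling chain below the receptor were tested. In DDC, 14 were higher and 2 lower than in Control, with a list median of 0.23. The largest changes were in the ubiquitin ligase gene Peli3, which fell by 0.78 ± 0.10, the inhibitory kinase gene Irak3 at 0.76 ± 0.11, the adaptor Myd88 at 0.68 ± 0.11 and the kinase gene Irak2 at 0.50 ± 0.07. Peli2 was the other gene that fell, by 0.26 ± 0.06. In R15 against Control Irak3 and Ikbkb were higher, at 0.47 ± 0.12 and 0.21 ± 0.05. In 18 of 25 alternative settings fewer than these 2 were called. In R15 against DDC 2 were higher and 13 lower.

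Genes that NF-κB is known to induce were described over a list of 27, of which 22 were tested. All 22 were higher in DDC than in Control, with a list median of 1.55. Of the genes under the filter, Saa1 and Saa2 had lower means in DDC (0.641 and 0.217 FPKM) than in Control. The Control means were 1.63 ± 2.25 and 0.778 ± 1.01 FPKM (SD, n = 4). Saa3 was 0.382 FPKM in DDC and 0.373 FPKM in Control, while Il6 (0.132 and 0.0384 FPKM) and Csf3 (0.442 and 0.0965 FPKM) had higher means in DDC. The list includes chemokine genes and genes that tumour necrosis factor and microbial products also induce, so it is not specific to IL-1. The largest changes were in Ccl2 at 7.11, Cxcl2 at 4.14, Cxcl1 at 3.48 and Lcn2 at 2.90 on the log2 scale. Ccl2, a chemokine for monocytes, was 207 ± 24.2 FPKM in DDC (SD, n = 4), 30.9 ± 9.62 FPKM in R15 (SD, n = 3) and 0.506 ± 0.218 FPKM in Control (SD, n = 4). In R15 against Control 8 of the 22 were higher and 0 lower by limma (4 without Control 1 and Control 3), and in R15 against DDC 20 were lower. Of the 22, Csf2 would not have passed the low-value filter without the DDC libraries, and the counts describe the genes tested and not whole pathways. The macrophage, neutrophil and dendritic cell markers given beside Il1b moved in the same direction as these lists, and their part was not tested.

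**Figure D5:**
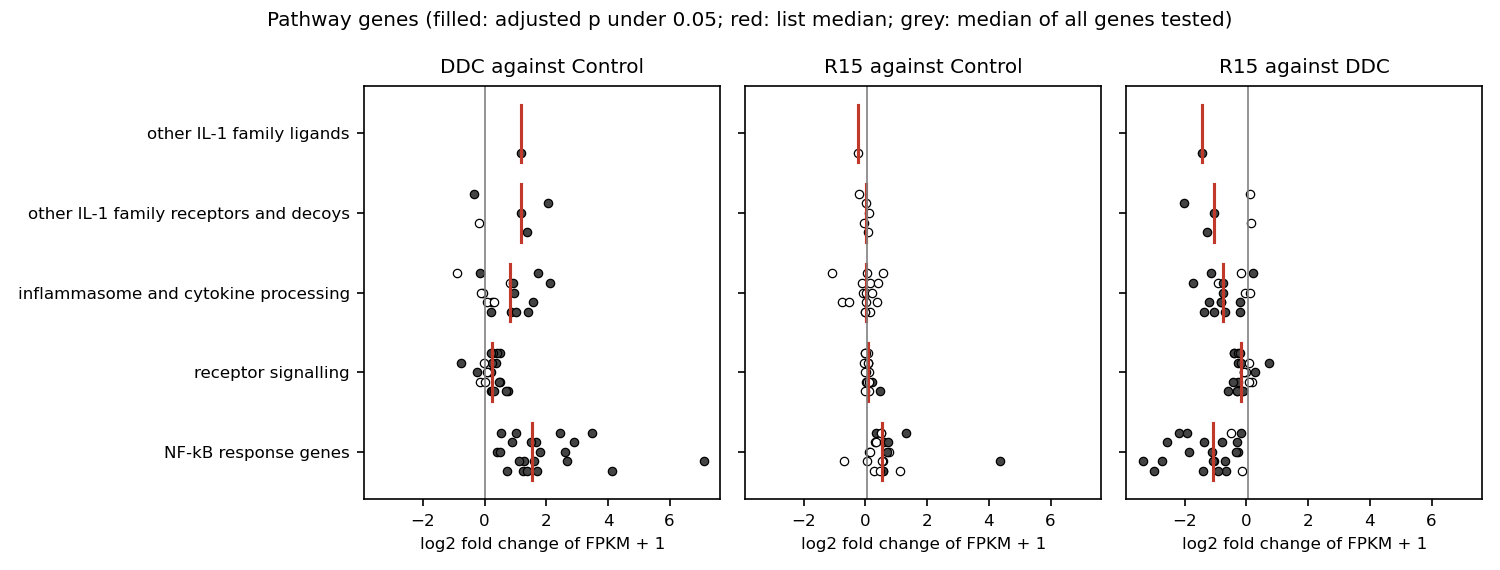
Log2 fold change of FPKM + 1 (x axis) for each tested gene of 5 pathway lists (rows, with points spread vertically within a row for legibility) in the 3 comparisons, by limma; filled points have an adjusted p under 0.05, red lines mark list medians and the grey line the median of all genes tested. For DDC against Control the list medians of NF-kB response genes and of inflammasome genes are 1.55 and 0.82, and for R15 against Control the 17 inflammasome genes are all open points.

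The genes whose profile over the 11 libraries was most like that of a member were found by the mean absolute difference of centred log2(FPKM + 1) values, where 0 is an identical profile. For Il1b they were Ccl3 at 0.21, Cd83 at 0.22 and Plek at 0.23. For Il1rn they included Timp1 at 0.22 and Slc4a11 at 0.26. Timp1 was 18.0 ± 2.87 FPKM in DDC (SD, n = 4), 2.01 ± 0.764 FPKM in R15 (SD, n = 3) and 0.604 ± 0.0904 FPKM in Control (SD, n = 4), and Ccl3 was 17.3 ± 1.18, 3.41 ± 2.62 and 1.252 ± 0.573 FPKM in the same groups. For Il1a they were Hlx at 0.12, Mylip at 0.16 and Ifi203 at 0.18. Hlx had 3.84 and 2.23 FPKM in Control 3 and Control 4, and 0.673 and 0.821 FPKM in Control 1 and Control 2, the same split as Il1a. Hlx was chosen for its likeness to Il1a over these libraries, so the shared split is not separate evidence.

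For Il18 the nearest genes were C1galt1c1, Tusc2 and Tgoln1, each at 0.08. For Il33 they were Gm15421, Ubald2 and Rcl1 at 0.12 to 0.13, for Il1r1 Zfp382, P3h1 and Pde5a at 0.07 to 0.09, and for Il1rap Kansl2, Sccpdh and Mtg1 at 0.03 to 0.04. Small distances are easy to reach for members that vary little: the mean absolute deviation of the member itself was 1.31 for Il1b and 1.60 for Il1rn, and 0.10 for Il1rap. These are likenesses over libraries that share a diet and a cell mix.

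In mm10, Il1a (ENSMUSG00000027399) lies on chromosome 2 from 129299610 to 129309972, Il1b (ENSMUSG00000027398) on chromosome 2 from 129364570 to 129371139, both on the minus strand, and Il1rn (ENSMUSG00000026981) on chromosome 2 from 24336853 to 24351494 on the plus strand. Il18 (ENSMUSG00000039217) ends at 50581837 of chromosome 9, and Il33 (ENSMUSG00000024810) lies on chromosome 19 from 29925114 to 29960718. Il1r1 (ENSMUSG00000026072) and Il1rl1 (ENSMUSG00000026069) lie on chromosome 1 from 40225080 to 40317257 and from 40429570 to 40465415, and Il1rap (ENSMUSG00000022514) on chromosome 16 from 26581704 to 26730117. The values are for whole genes and do not separate isoforms. Models on the opposite strand overlap Il1b (Il1bos), Il1a (Gm14023) and Il1rap (Gm20319), with at most 0.215, 1.12 and 0.384 FPKM in any library, and Gm38070 overlaps Il1r1 on the same strand with at most 0.0512 FPKM. The sources used here do not say how reads in such overlaps were counted, so small parts of these values are uncertain.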

How the data were processed

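Stranded mRNA libraries of EpCAM-selected liver cells from 11 mice were sequenced, per the labels' protocols. The authors deposited FPKM per gene and library; per the submitters' processing notes the genome build is mm10. For the aligner, counting tool, strand setting and gene models, a name is not given in the sources used. FPKM multiplied by the given length plus 1 came out as whole reads in 100% of values within a tolerance of 0.001, which gave depths and an alternative test. The main test was limma 3.58.1 in R 4.3.3 on log2(FPKM + 1), which understates changes of low genes, for genes that reached FPKM 1 in 3 or more libraries. It used 1 linear model with 3 groups, empirical Bayes with a mean-variance trend and 2-sided p adjusted by Benjamini-Hochberg over 15264 genes at 0.05. It was first checked on simulated data with few changed genes and no library set apart by transcripts of other tissues. That check does not cover such conditions in these data. No pairing was used, since libraries are separate mice. Il1rl1, below the filter, had an exact permutation test. Ratios and marker sums had no test.

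The members and lists were chosen with earlier results of these data known. The genes named are the 8 members, the 4 tested genes with the largest passing change in DDC against Control per pathway list with the exceptions to a count, the 3 genes of most like profile per tested member, and list members at 0 everywhere; 1 of the genes of most like profile is not reported here. Alternatives were pseudocounts of 0.1 and 5, no filter or FPKM 5, median-of-ratios, quantile and common-total scaling, robust variances, only the groups compared, a replicate block, each library left out, Control 1 and Control 3 left out, and limma voom on recovered reads. Leaving out Control 3 and Control 4, and voom over all genes with at least 10 reads, were added after the data were seen. Promoters are RefSeq windows of GRCm38.p6, matched for 8 of 8 members, and the genes table of GENCODE M21 gave strands. No column of values was left unmapped.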

Additional observations from a re-analysis of the deposited data

Results flagged for a closer look

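Il1rn in Control 2 was 1.84 FPKM, far below the 4.61 to 4.78 FPKM of the other 3 Control libraries. Its gap to the nearest of them was 0.942 of the group's whole range, above Dixon's 95% critical value for 4 samples. Chance takes a group past that critical value in about 1 of 20 groups, and the gap here was larger than the value. The rule was run on each of the 8 members in both DDC and Control, so 1 gap past the critical value among them can arise by chance. In the same library Il1b was the highest of the Control libraries at 7.38 FPKM, so the ratio of Il1rn to Il1b was 0.249 there. Without Control 2 the Il1rn log2 fold change for DDC against Control was 3.72.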

How the results depend on the processing

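For DDC against Control, Il1b, Il1rn, Il18 and Il33 kept direction and call under every setting that gave a value, with log2 changes of 2.30 to 3.27, 3.15 to 4.28, -0.69 to -0.50 and 0.33 to 0.92. Il1b and Il1rn also kept theirs for R15 against DDC, at -2.63 to -1.73 and -2.91 to -2.41. R15 against Control was fragile. Its members past the threshold were 1 with no filter, a common total, Control 1 and Control 3 left out, Control 3 and Control 4 left out, or voom without the FPKM filter, and 0 with only the 2 groups compared or the replicate block, with 0 to 2 over libraries left out. Its genes past the threshold, 1463, became 317 with only the 2 groups compared, 693 with the replicate block, 491 without Control 1 and Control 3 and 498 without Control 3 and Control 4, with 660 to 2184 over libraries left out. Il1rn lost this call with only the 2 groups compared (adjusted p 0.0833), with the replicate block (0.0534) and without R15 2. Replicate numbers did not pair the mice: same-numbered libraries correlated at -0.28 to 0.30. The split of calls moved with scaling: R15 against Control gave 678 higher and 709 lower with median-of-ratios and 602 and 453 with quantile scaling, against 1048 and 415, and R15 against DDC gave 6194 and 3290 with a common total, which moved the median of all genes to 0.14, against 5099 and 4397. Signs turned for Il1a, DDC against Control, without Control 1 (-0.0048, range -0.0048 to 0.62 over libraries left out), Il1a, R15 against Control, without Control 3 and Control 4 (0.27), Il1rap, R15 against Control, without Control 1 and Control 3 (-0.012), and Il1rap, R15 against DDC, with a common total (0.020), none of them called. For Il1rl1, the DDC against Control difference stayed at 0.33 to 0.43 over libraries left out, where 3 against 4 cannot go below p = 0.0571 by exact permutation test. The causes were not tested.

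Depth did not limit the members above FPKM 1, which rested on at least 195 reads per library. Il1rl1 rested on as few as 20. Groups of 3 and 4 mice limit the rest.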
